A study of Mus musculus with 6 samples.

Results

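The genes described here are the 34 listed genes of sterol synthesis, its control by SREBP and liver X receptors, cholesterol efflux and storage, and lipoprotein uptake, megalin (Lrp2) included. They were taken by symbol from a table of raw read counts for 50686 genes, and all 34 were found. The table came from RNA of whole lacrimal glands, which make the aqueous layer of tears. Of the 6 libraries, 3 were from Eda-/- mice, titled Tabby, and 3 from wild-type mice, titled Blacky. All mice carried the strain label C57BL/6 and were 13 weeks old. According to the design text, replicates were biological. Eda encodes ectodysplasin A, a TNF-family ligand needed for the development of hair, teeth and several exocrine glands. The mutants lack it throughout life and in every tissue, so a difference in the adult gland cannot be assigned to the adult stage or to the gland. Substrain, sex and litter are not given in the labels used here.

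Cells make cholesterol from acetyl-CoA through mevalonate, farnesyl and squalene intermediates and a chain of sterol-modifying enzymes of the endoplasmic reticulum. When sterol is scarce, SCAP carries the SREBP transcription factors to the Golgi, where they are cut free to switch on these enzymes, and INSIG proteins hold SCAP back when sterol is plentiful. Liver X receptors sense oxysterols and switch on the exporters ABCA1 and ABCG1. Lipoproteins enter cells through a family of endocytic receptors, of which megalin is a very large member of the apical surface of absorptive epithelia that also takes up vitamin carriers and other secreted proteins.

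The libraries held between 11894395 and 15700899 counts. Eda itself had 2, 0 and 0 counts in Eda-/- libraries 1, 2 and 3, against 41, 48 and 42 in wild-type libraries 1, 2 and 3. All 7 fixed markers of lacrimal acinar cells were tested, among them the water channel gene Aqp5, with 102 to 124 CPM in Eda-/- and 95.3 to 101 CPM in wild-type libraries. CPM is edgeR's count-per-million-reads scale, with libraries scaled by the trimmed mean of M-values (TMM). A gene passed where edgeR's quasi-likelihood test gave a Benjamini-Hochberg adjusted p under 0.05 over all 13178 tested genes. Log2 fold changes are Eda-/- over wild-type, and values per library are given in the order of replicates 1, 2 and 3.

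Megalin transcripts were 5.23-fold lower in Eda-/- glands, the largest change of the list. Of the 16 tested genes of sterol synthesis 4 passed (25%, beside 13.1% of all tested genes), 2 in each direction. Of the 34 genes 31 had enough counts to be tested. Among those, 10 passed, which is 32.3% beside 13.1% of all tested genes. Higher in Eda-/- were 2, the mevalonate pathway enzymes Mvd and Fdps (6.45%, beside 6.21% of all tested genes). Lower were 8, namely Lrp2, Lrp1, Scarb1, Abca1, Abcg1, Srebf1, Sc5d and Acat2 (25.8%, beside 6.90% of all tested genes). The median log2 fold change of the 31 was 0.017, beside 0.0030 over all tested genes. Groups did not overlap in CPM for 12 of the 31 (38.7%), beside 32.1% of all tested genes. Lrp2 alone of the 10 passed with each library left out in turn. The 9 other calls rested on smaller differences and did not pass in at least 1 of those fits, as given with each gene.

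**Figure D1:**
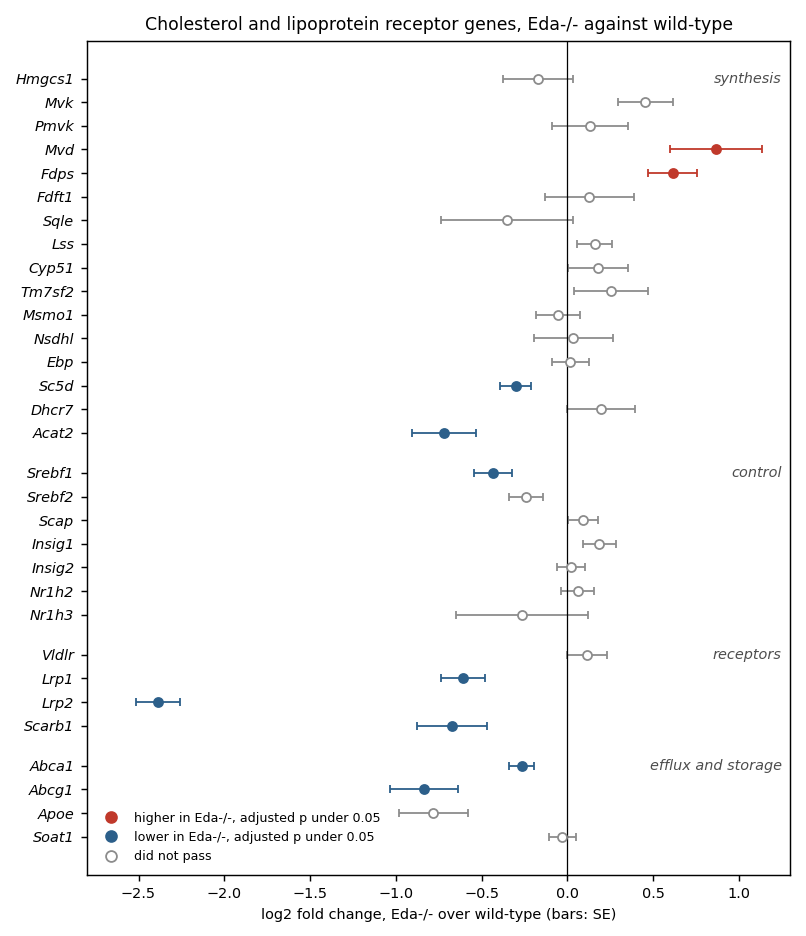
Log2 fold change of each of the 31 tested genes on the horizontal axis, Eda-/- over wild-type, with bars for the standard error; genes run down the page by role and filled points passed edgeR's test. Lrp2 lies at -2.39, far to the left of the others, while the synthesis genes lie between -0.72 and 0.87.

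Of the receptors, 3 of 4 tested genes fell (75%, beside 6.90% of all tested genes) and the other did not pass. Lrp2 (ENSMUSG00000027070.14, GRCm38 chromosome 2, 69424340 to 69586065, minus strand) had 7.86, 6.37 and 6.00 CPM in Eda-/- libraries, against 40.4, 33.2 and 32.1 CPM in wild-type libraries. All Eda-/- libraries lay far below all wild-type libraries, with no overlap. The means were 6.75 ± 0.98 CPM in Eda-/- and 35.2 ± 4.51 CPM in wild-type (SD, n = 3 each). Its log2 fold change was -2.39 (SE 0.13), with an adjusted p of 2.7e-09 in edgeR. With each library left out in turn its log2 fold change ran from -2.51 to -2.27. These are whole glands, so fewer cells of a type and less RNA per cell cannot be told apart, for this gene or any other. Its exons overlap no other annotated gene.

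Lrp1, a broadly expressed endocytic receptor for remnant lipoproteins and protease complexes, had 55.4, 43.6 and 45.1 CPM in Eda-/- libraries, against 69.3, 63.8 and 86.65 CPM in wild-type libraries. The groups did not overlap, and wild-type 3 stood above the other wild-type libraries. The log2 fold change was -0.61 (SE 0.13, edgeR adjusted p = 0.0124); it was -0.46 without wild-type 3 and did not pass without Eda-/- 3 (adjusted p = 0.0614). Scarb1, the receptor that takes cholesteryl esters from HDL, had 2.27, 2.25 and 2.88 CPM in Eda-/- libraries, against 3.68, 4.53 and 3.66 CPM in wild-type libraries. It also separated the groups (-0.67, SE 0.20, edgeR adjusted p = 0.0412), but passed in none of the 6 fits with a library left out (adjusted p from 0.051 to 0.173), nor in DESeq2 (adjusted p = 0.237). Vldlr, which binds triglyceride-rich lipoproteins, had 24.2, 18.6 and 26.9 CPM in Eda-/- libraries, against 21.9, 22.2 and 20.35 CPM in wild-type libraries (0.12, SE 0.12, edgeR adjusted p = 0.571). Its groups overlapped. Lrp8, the reelin receptor ApoER2, was too low to be tested, with 0, 1 and 0 counts in Eda-/- and 2, 3 and 7 counts in wild-type libraries.

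Of the 4 genes of efflux and storage, both exporters fell (50%, beside 6.90% of all tested genes), and all 4 values lay below 0. Abca1, which moves cholesterol onto lipid-poor apolipoproteins, had 103.9, 107.9 and 118.7 CPM in Eda-/- libraries, against 129.4, 138.7 and 129.6 CPM in wild-type libraries. The difference was small and the groups did not overlap (-0.27, SE 0.07, edgeR adjusted p = 0.0256). It passed without Eda-/- 3 and not with any other library left out (adjusted p up to 0.14). Abcg1, which exports cholesterol to HDL, had 6.29, 4.97 and 5.46 CPM in Eda-/- libraries, against 7.92, 8.70 and 13.35 CPM in wild-type libraries (-0.84, SE 0.20, edgeR adjusted p = 0.0161). Without wild-type 3, the highest library, the log2 fold change was -0.57 and the gene passed; it did not pass without Eda-/- 2 or Eda-/- 3 (adjusted p up to 0.0795). Of the 15 other tested genes within 1 Mb of Abcg1 on chromosome 17, 6 passed, 5 of them higher. Of all tested genes 13.1% passed and 6.21% were higher. Within 1 Mb of Lrp2, 4 of 15 tested neighbours passed, and within 1 Mb of Lrp1, 11 of 54. Around the other genes of the list that passed, the share of neighbours passing varied. The counts were 0 of 13 for Acat2, 0 of 5 for Sc5d, 1 of 20 for Scarb1 and 2 of 36 for Srebf1. They were 2 of 6 for Abca1, 4 of 35 for Mvd and 4 of 57 for Fdps. Around genes that did not pass, shares ran from 0 of 8 for Fdft1 to 4 of 5 for Msmo1. The part of these neighbourhoods in the values of the genes was not tested.

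Apoe, the apolipoprotein that carries lipid between cells, had 60.6, 48.55 and 47.4 CPM in Eda-/- libraries, against 73.8, 80.6 and 114.6 CPM in wild-type libraries. Every Eda-/- library lay below every wild-type library, yet the gene did not pass in the main test (-0.78, SE 0.20, edgeR adjusted p = 0.0605). It passed in DESeq2 (adjusted p = 4.59e-06) and limma-voom (0.00902), and in edgeR without wild-type 1 (0.0128) or wild-type 3 (-0.56, 0.00221). Soat1, the enzyme that esterifies cholesterol for storage, was among the most abundant of the list per exon length and had 218.7, 223.4 and 255.7 CPM in Eda-/- libraries, against 225.9, 235.9 and 250.3 CPM in wild-type libraries. Its groups overlapped throughout (-0.03, SE 0.08, edgeR adjusted p = 0.857).

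**Figure D2:**
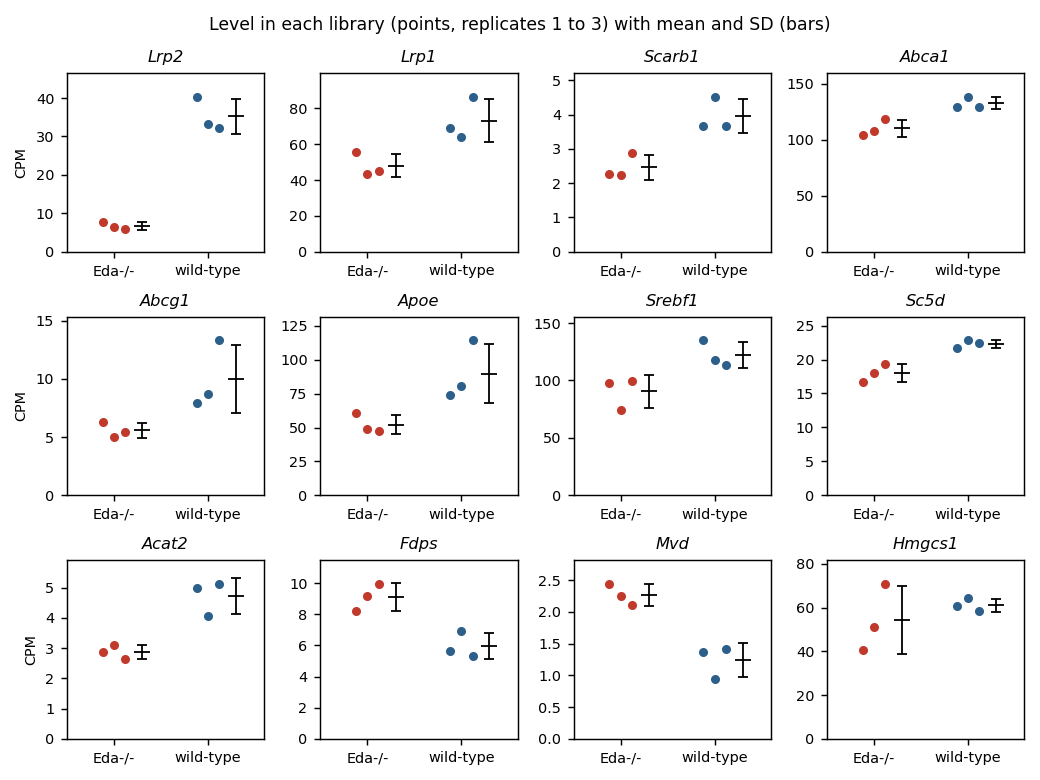
CPM in each library, on linear axes that start at 0, for the 10 genes that passed and for Apoe and Hmgcs1, with points for replicates 1 to 3 and bars for the mean and SD of 3 libraries. The groups separate in every panel except Hmgcs1, and Lrp2 shows the widest gap, at 6.00 to 7.86 CPM in Eda-/- against 32.1 to 40.4 CPM in wild-type.

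Macrophages are rich in Apoe, Abca1, Abcg1 and Lrp1, and markers of these cells were also lower in Eda-/- glands. The 10 fixed macrophage markers summed to 48.6, 39.5 and 39.0 CPM in Eda-/- libraries, against 82.8, 90.2 and 162.7 CPM in wild-type libraries. Of the 10, all tested and none at 0, 5 fell (50%, beside 6.90% of all tested genes) and all 10 values lay below 0. Wild-type 3 was the highest library for the summed macrophage markers, Apoe, Abcg1 and Lrp1, and not for Lrp2, Scarb1 or Abca1. It was also the highest library for the fibroblast, myoepithelial, endothelial and duct sums given below. The 7 fibroblast markers summed to 166.9, 185 and 159.8 CPM in Eda-/- libraries, against 217.3, 201.1 and 262.1 CPM in wild-type libraries, and 3 of 7 fell (42.9%). The myoepithelial markers summed to 90.8, 91.7 and 81.2 CPM in Eda-/- libraries, against 101.8, 108 and 137.9 CPM in wild-type libraries. Of 6 tested, 3 fell (50%) and all 6 values lay below 0. The keratin genes Krt14 (-0.01) and Krt5 (-0.03) were close to unchanged. Endothelial markers summed to 35.5, 34.2 and 32.4 CPM in Eda-/- libraries, against 38.0, 40.5 and 50.7 CPM in wild-type libraries. Of 6 tested endothelial markers 1 fell (16.7%), the clotting factor gene Vwf (-1.01, edgeR adjusted p = 0.00268). The gap in the endothelial sum came from Vwf, with mean CPM of 9.36 in Eda-/- and 18.9 in wild-type glands. The median log2 fold change of the 6 was -0.017, with 3 values above 0 and 3 below. None of these 4 sums overlapped between groups. The part of these cell types in the receptor and efflux values was not tested. The duct markers summed to 228.4, 210.5 and 201.3 CPM in Eda-/- libraries, against 228.6, 218.5 and 250.6 CPM in wild-type libraries. Of 6 tested duct markers 1 fell (16.7%), the receptor kinase gene Kit (-0.87, edgeR adjusted p = 0.000357). The median log2 fold change of the 6 was -0.21, and 5 of the values lay below 0. Krt8 made up most of the duct sum. The acinar markers summed to 2092, 1953 and 2138 CPM in Eda-/- libraries, against 1783, 2300 and 2205 CPM in wild-type libraries, and Lcn11 made up more than any other marker. Of these 7 markers 1 rose (14.3%, beside 6.21% of all tested genes), the transcription factor gene Bhlha15 (0.36, edgeR adjusted p = 0.00694), and none fell. Groups did not overlap for 5 of the 7 (71.4%, beside 32.1% of all tested genes). These did not all go one way, as Slc12a2 was lower in Eda-/- (-0.48, edgeR adjusted p = 0.258). The median log2 fold change of the 7 was 0.11, with 4 values above 0 and 3 below. The duct and acinar sums overlapped, as did Krt8 and Lcn11, which weighed most in them. These 2 sums therefore say little about the other duct and acinar markers. The part of these cells in the receptor and efflux values was not tested either.

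**Figure D3:**
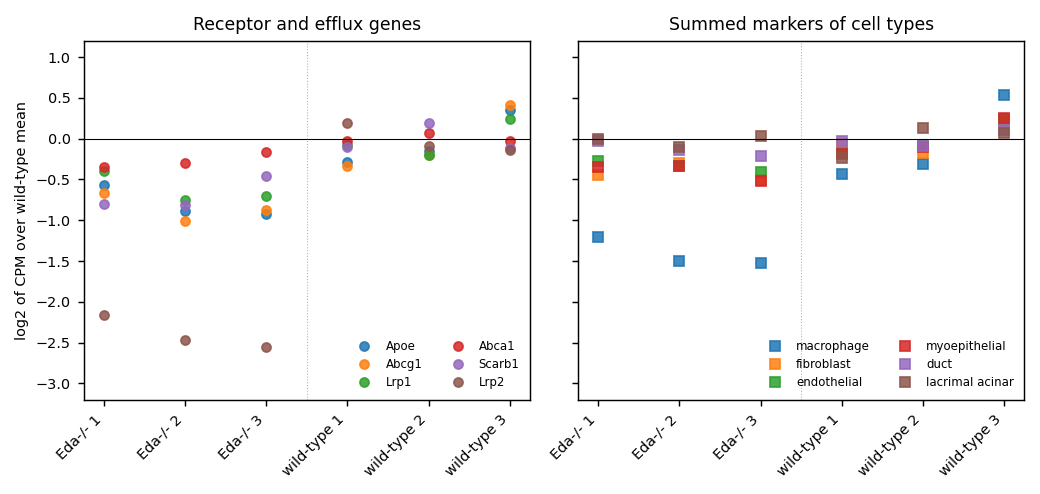
Log2 of CPM over the wild-type mean in each library, for receptor and efflux genes (left, circles) and for the summed markers of 6 cell types (right, squares). Summed macrophage markers lay lowest in the Eda-/- libraries and highest in wild-type 3, and Lrp2 lay lower in Eda-/- than any of the marker sums.

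Among the sterol synthesis enzymes, 2 of 16 tested genes rose (12.5%, beside 6.21% of all tested genes) and 2 fell (12.5%, beside 6.90%). The other 12 did not pass, and the median log2 fold change of the 16 was 0.13. The pathway begins with Acat2, the cytosolic thiolase that joins acetyl-CoA units, which had 2.88, 3.09 and 2.65 CPM in Eda-/- libraries, against 4.99, 4.06 and 5.14 CPM in wild-type libraries. It fell by 0.72 on the log2 scale (SE 0.19, edgeR adjusted p = 0.0196) but did not pass without Eda-/- 1 or 3 or wild-type 1 or 3 (adjusted p up to 0.0811), nor in DESeq2 (0.133). Acat2 shares 43.7% of its 31-base words with its neighbour Acat3, so reads of the copies can be confused and the value is uncertain. Acat3 itself had 0, 2 and 2 counts in Eda-/- and 5, 5 and 1 counts in wild-type libraries.

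Hmgcs1, which makes HMG-CoA and is a standard SREBP target, had 40.4, 51.4 and 71.0 CPM in Eda-/- libraries, against 60.9, 64.2 and 58.35 CPM in wild-type libraries. The Eda-/- libraries spread on both sides of the wild-type ones (-0.17, SE 0.20, edgeR adjusted p = 0.668), and without Eda-/- 3, the highest, the gene passed as lower (-0.41, adjusted p = 0.0268). Mvk, mevalonate kinase, had 5.24, 5.90 and 5.22 CPM in Eda-/- libraries, against 3.87, 3.82 and 4.24 CPM in wild-type libraries. Its groups did not overlap, but it did not pass (0.45, SE 0.16, edgeR adjusted p = 0.0774). Pmvk, phosphomevalonate kinase, had overlapping groups (0.13, adjusted p = 0.759).

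Mvd, the decarboxylase that turns mevalonate diphosphate into isopentenyl diphosphate, had 2.44, 2.25 and 2.11 CPM in Eda-/- libraries, against 1.37, 0.94 and 1.41 CPM in wild-type libraries. It rose by 0.87 on the log2 scale (SE 0.27, edgeR adjusted p = 0.0442). The call rested on 16 to 28 counts per library. It held without wild-type 3 (adjusted p = 0.0476) and with no other library left out (up to 0.16), and was not made by DESeq2 (0.237) or with the replicate number as a block (0.0585). Fdps, which builds farnesyl diphosphate, had 8.21, 9.18 and 9.98 CPM in Eda-/- libraries, against 5.61, 6.94 and 5.33 CPM in wild-type libraries. It rose by 0.61 (SE 0.15, edgeR adjusted p = 0.0115) and did not pass without Eda-/- 3 (0.0614). Of its exon bases 26.7% overlap the annotated gene Gm43738 on the same strand, which was listed at 0 counts in every library. With library totals in place of TMM neither Mvd (0.59, adjusted p = 0.106) nor Fdps (0.33, 0.085) passed; that scaling put the median of all tested genes at -0.28.

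Downstream of farnesyl diphosphate, Sc5d was the only enzyme of the list that passed. Sc5d, a sterol desaturase of the last steps, had 16.8, 18.1 and 19.4 CPM in Eda-/- libraries, against 21.6, 22.9 and 22.4 CPM in wild-type libraries. The groups were separate and the difference small (-0.30, SE 0.09, edgeR adjusted p = 0.0409), and the gene passed in none of the 6 fits with a library left out (adjusted p from 0.0504 to 0.148), nor in DESeq2 (0.23). Dhcr7, the reductase of the final step, had 5.50, 4.69 and 4.21 CPM in Eda-/- libraries, against 3.12, 4.41 and 5.01 CPM in wild-type libraries. Its groups overlapped (0.20, SE 0.20, edgeR adjusted p = 0.571). The squalene synthase Fdft1 (0.13), the epoxidase Sqle (-0.35), the lanosterol synthase Lss (0.16) and the demethylase Cyp51 (0.18) did not pass. Nor did the reductase Tm7sf2 (0.25), the oxidase Msmo1 (-0.05), the dehydrogenase Nsdhl (0.03) and the isomerase Ebp (0.02). Adjusted p of these 8 ran from 0.34 for Lss to 0.943 for Nsdhl. Sqle, with 9 to 29 counts per library, had the largest standard error of the list, at 0.38, so a change of moderate size was not detectable there.

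Of the synthesis genes, 2 were too low to be tested. The isomerase Idi1 had 5, 6 and 12 counts in Eda-/- and 8, 7 and 10 counts in wild-type libraries. Hsd17b7, a ketosteroid reductase, had 7, 10 and 9 counts in Eda-/- and 3, 5 and 7 counts in wild-type libraries. After scaling, the Eda-/- libraries of Hsd17b7 lay at 0.61, 0.94 and 0.70 CPM, all above the wild-type libraries at 0.19, 0.29 and 0.45 CPM.

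Of the genes that control the pathway, 1 of 7 passed (14.3%, near the 13.1% of all tested genes), and it fell. The other 6 did not pass. Srebf1, which encodes SREBP-1 and acts mainly on fatty acid genes, had 97.9, 74.0 and 99.6 CPM in Eda-/- libraries, against 135.2, 118.2 and 113.4 CPM in wild-type libraries. The groups did not overlap, with Eda-/- 2 the lowest. It fell by 0.43 on the log2 scale (SE 0.11, edgeR adjusted p = 0.028) and passed in DESeq2 (0.00443) and limma-voom (0.0271), but not without Eda-/- 1, wild-type 1 or wild-type 2 (adjusted p up to 0.0776). Srebf2, whose product SREBP-2 drives the cholesterol enzymes, had 18.5, 14.7 and 16.45 CPM in Eda-/- libraries, against 20.3, 20.1 and 18.4 CPM in wild-type libraries. Its groups overlapped narrowly and it did not pass (-0.24, SE 0.10, edgeR adjusted p = 0.137).

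Scap, the escort of the SREBPs, had 60.5, 47.6 and 51.85 CPM in Eda-/- libraries, against 49.1, 49.3 and 51.9 CPM in wild-type libraries (0.09, SE 0.09, edgeR adjusted p = 0.562). The retention proteins did not pass either. Insig1, itself an SREBP target, had 46.4, 52.9 and 56.1 CPM in Eda-/- libraries, against 50.5, 45.7 and 40.4 CPM in wild-type libraries (0.19, SE 0.09, edgeR adjusted p = 0.221). Insig2 had 37.8, 38.6 and 37.8 CPM in Eda-/- libraries, against 35.7, 36.05 and 40.9 CPM in wild-type libraries, and its groups overlapped (0.02, SE 0.08, edgeR adjusted p = 0.899). The liver X receptor genes did not pass, at 0.06 for Nr1h2 (LXR-beta, adjusted p = 0.739) and -0.26 for Nr1h3 (LXR-alpha, 0.715). Nr1h3 had 5 to 10 counts in Eda-/- and 11 to 17 counts in wild-type libraries, too few to resolve a difference of that size.

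Per kilobase of annotated exon, the list spanned a wide range of levels. Apoe was highest, at 24.4 ± 3.42 CPM per kb in Eda-/- and 41.95 ± 10.2 CPM per kb in wild-type glands (SD, n = 3 each). Soat1 followed in wild-type (23.8 CPM per kb in Eda-/- and 24.2 in wild-type), then Srebf1 (16.1 in Eda-/- and 21.7 in wild-type). Among receptors Lrp1 was highest, at 2.71 CPM per kb in Eda-/- and 4.13 in wild-type glands. Lrp2 stood at 0.404 CPM per kb in Eda-/- glands, near Scarb1 (0.29), and at 2.11 in wild-type glands, beside Vldlr (2.13). Hmgcs1 was the highest synthesis enzyme, at 11.8 CPM per kb in Eda-/- and 13.3 in wild-type glands, and Pmvk and Ebp came next. No test was made between genes.

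**Figure D4:**
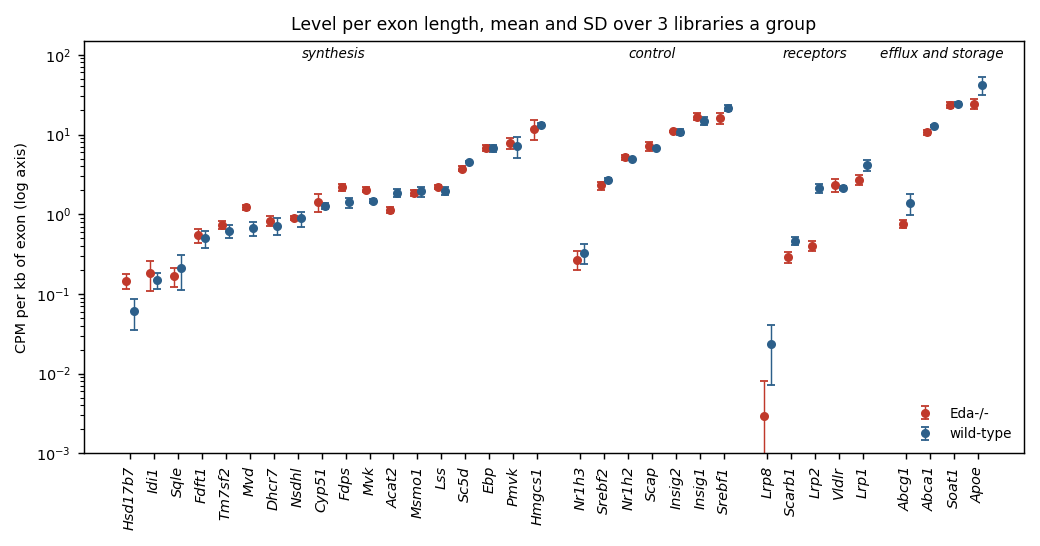
Level of all 34 genes in CPM per kilobase of exon on a log axis, grouped by role and ordered by the wild-type mean within a role, with Eda-/- left of wild-type and bars for the SD of 3 libraries (the lower bar of Lrp8 in Eda-/- runs off the axis, its SD being above its mean). The 2 points of Lrp2 stand far apart, at 0.404 in Eda-/- and 2.11 in wild-type, while those of most synthesis and control genes nearly touch.

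RefSeq's GRCm38.p6 table, with 250 bases before and 50 after each start, held windows for 29 of the 34 genes, all but Fdps, Fdft1, Sqle, Scarb1 and Abcg1. They were searched on both strands for the CCAAT box bound by NF-Y (letters CCAAT), which works beside SREBP at sterol genes, and for a sterol regulatory element (letters TCACNCCAC). The motifs do not overlap each other in the windows shown. A CCAAT box was found in 14 of 15 synthesis genes with a window (93.3%), all but Acat2, in 4 of 7 control genes, in 1 of 4 receptor genes and in 1 of 3 genes of efflux and storage, beside 41.1% of all 27025 genes in the table. Of the genes that fell, Lrp2, Lrp1, Abca1 and Acat2 had none, Sc5d had 1, Srebf1 had 1 in each of 2 windows, and Scarb1 and Abcg1 had no window. The sterol element was found in Hmgcs1 alone (1.44% of all genes), 137 bases before its start. Below are the windows of Lrp2, which changed most, of Mvd, which had the largest increase, and of Hmgcs1, which holds the sterol element; capitals mark motif matches on either strand, and each is written 5′ to 3′ along the gene.
Lrp2, chr2:69585980-69586279, minus strand: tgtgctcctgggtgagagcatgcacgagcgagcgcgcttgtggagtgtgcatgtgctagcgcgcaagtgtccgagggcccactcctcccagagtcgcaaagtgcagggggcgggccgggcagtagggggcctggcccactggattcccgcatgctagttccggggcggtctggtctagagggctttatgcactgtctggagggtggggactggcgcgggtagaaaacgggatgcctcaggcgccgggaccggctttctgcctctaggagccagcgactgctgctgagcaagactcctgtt
Mvd, chr8:122443373-122443672, minus strand: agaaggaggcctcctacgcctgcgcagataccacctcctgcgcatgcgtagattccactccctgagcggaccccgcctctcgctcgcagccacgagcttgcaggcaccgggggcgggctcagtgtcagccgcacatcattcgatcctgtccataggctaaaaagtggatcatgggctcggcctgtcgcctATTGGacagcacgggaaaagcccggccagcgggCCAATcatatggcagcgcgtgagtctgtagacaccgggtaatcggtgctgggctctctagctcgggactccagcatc
Hmgcs1, chr13:119690101-119690400, plus strand: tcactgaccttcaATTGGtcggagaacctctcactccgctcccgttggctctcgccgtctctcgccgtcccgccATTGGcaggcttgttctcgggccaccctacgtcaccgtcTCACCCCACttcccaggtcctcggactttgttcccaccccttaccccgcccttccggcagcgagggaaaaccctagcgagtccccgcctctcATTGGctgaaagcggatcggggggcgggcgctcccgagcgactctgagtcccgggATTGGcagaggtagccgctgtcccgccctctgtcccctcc
The Lrp2 window has no capitals. The Mvd window has 2 CCAAT boxes, at 60 and 27 bases before the start, and the Hmgcs1 window has 4 beside the sterol element. A match is a run of letters and was not tested as a site.

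Other genes of cholesterol handling, from a list of 75 set down beside the 34, included 14 of 59 tested that passed (23.7%, beside 13.1% of all tested genes). Of the 59, 4 rose (6.78%, near the 6.21% of all tested genes) and 10 fell (16.9%, beside 6.90%), and their median log2 fold change was -0.037. Dab2, the clathrin adaptor that binds the tail of megalin, fell by 0.64 (adjusted p = 0.0329). It did not pass without Eda-/- 2 or 3 or wild-type 2 or 3 (up to 0.142), nor in DESeq2 (0.125). Cubn and Amn, which encode the partners of megalin in kidney and gut, had at most 9 and 5 counts in any library and were not tested. The related genes Lrp5 (0.03), Lrp6 (0.08) and Lrp10 (-0.02), chosen after their values were seen, did not pass.

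Enzymes that hydroxylate sterols went both ways. Cyp27a1, the mitochondrial sterol hydroxylase, had 69.7, 68.1 and 53.0 CPM in Eda-/- libraries, against 44.8, 45.5 and 39.9 CPM in wild-type libraries. It rose by 0.55 (SE 0.10, edgeR adjusted p = 0.00257) and did not pass with library totals (0.27, adjusted p = 0.061). Cyp7b1, which hydroxylates oxysterols further, fell by 1.26, with 11, 8 and 10 counts in Eda-/- against 35, 28 and 34 counts in wild-type libraries (edgeR adjusted p = 0.0111; 0.0938 in DESeq2). Cyp46a1, the cholesterol hydroxylase best known from neurons, had 2, 0 and 2 counts in Eda-/- libraries, against 13, 17 and 13 counts in wild-type libraries (edgeR adjusted p = 0.00418). Gramd1b, which moves cholesterol from the plasma membrane to the endoplasmic reticulum, had 27.85, 29.3 and 33.45 CPM in Eda-/- libraries, against 17.3, 17.9 and 23.1 CPM in wild-type libraries (0.64, SE 0.11, edgeR adjusted p = 0.00198). These 4 genes passed with each library left out in turn, as did Apod.

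Apod, a lipocalin found on HDL, fell by 1.03 (edgeR adjusted p = 0.00153), with 8.54 ± 1.09 CPM in Eda-/- and 17.5 ± 3.95 CPM in wild-type glands (SD, n = 3 each). The lysosomal cholesteryl ester hydrolase Lipa (-0.84), the phospholipid transfer protein Pltp (-0.69), the geranylgeranyl diphosphate synthase Ggps1 (-0.43) and the sterol carrier Stard5 (-0.29) fell, and the electron carrier Cyb5b rose (0.33). Lipa did not pass without Eda-/- 1 or 3 or wild-type 3, Pltp without Eda-/- 2 or 3 or wild-type 3, and Ggps1 without Eda-/- 1 or 3 or wild-type 2. Stard5 did not pass without Eda-/- 2 or wild-type 1 or 2, and Cyb5b without Eda-/- 3 or wild-type 1 or 2 (adjusted p up to 0.131 over these 5 genes). Mylip and Ubxn4 also passed, with log2 fold changes of -0.27 and 0.23. Ubxn4 failed in all 6 fits that drop a library, and Mylip in all but the one without Eda-/- 3. In DESeq2 Ggps1 (adjusted p = 0.117), Lipa (0.0656) and Mylip (0.154) did not pass. With library totals Cyb5b did not pass (0.05, adjusted p = 0.641), and Ubxn4 lay at -0.04 (0.648).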

How the data were processed

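Samples were grouped by genotype label and numbered by title, and columns were matched by name. The counts that the authors deposited are raw and whole, in a single table of genes by samples. Per the labels' protocols, RNA was extracted with beads and TRIzol, then depleted of ribosomal RNA and made into directional libraries. The build was GRCm38.p5 and the software DESeq2, featureCounts, STAR, Trimmomatic and bcl2fastq, per the submitters' processing notes. Tool versions, annotation release, strand setting and treatment of multi-mapping reads are not stated there, so overlapping genes and near-identical copies are uncertain.

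Symbols, coordinates and exon lengths came from GENCODE M21 (GRCm38), which matched 50462 of 50686 identifiers. Testing used edgeR 4.0.16 (R 4.3.3): filterByExpr (minimum count 10) left 13178 genes with at least 99.7% of each library's counts, scaling was by TMM, the model held genotype alone, and the quasi-likelihood fit was robust and two-sided. The SE of a log2 fold change is its size over the root of the F statistic. CPM means are given with SD over 3 libraries. Replicate pairs differed by more than sampling noise (chi-square per degree of freedom from 9.62 to 28.2). Shared words are runs of 31 bases found in transcripts of another gene. The scripts were tested on simulated counts.

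The 34 members were given, and they and the lists of other pathway genes and cell markers were chosen with earlier results of these data known. All 34 members are accounted for; of the other pathway genes, up to 12 that passed were to be named by adjusted p, and some genes of that list are not reported here. Mylip, Ubxn4, Lrp5, Lrp6, Lrp10, Cubn, Amn, Acat3, Gm43738, Aqp5, Krt5, Krt14 and Slc12a2 were named after their values were seen. Alternatives were DESeq2 1.42.0, limma-voom (limma 3.58.1), DESeq2 size factors or library totals in edgeR, no filter or a mean of at least 1 CPM, removal of the 20 most abundant genes, a replicate block, and each library left out.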

Additional observations from a re-analysis of the deposited data

How the results depend on the processing

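Of the alternatives, DESeq2 size factors, a mean of at least 1 CPM and removal of the 20 most abundant genes changed no call among the members they tested. With library totals, 4611 genes passed, 246 higher and 4365 lower. Of the 34 genes 0 were then higher and 12 lower, their median was -0.26, Insig2 passed as lower (-0.26), and 13 members that had not passed changed sign; the median of all tested genes was then -0.28. Without a filter on low counts, with the replicate block and in DESeq2, 1 member rose in each. DESeq2 called 593 of all genes lower. Limma-voom called 2 members higher and 7 lower. With each library left out, which leaves a group of 2, 4 to 7 members passed, 0 to 2 higher and 3 to 5 lower, and 599 to 834 of all genes were lower. The replicate numbers did not pair the libraries: deviations of same-numbered libraries from their group means correlated at -0.035, 0.021 and -0.094, not every library correlated best with its own number, and the block left 1608 genes and 7 members passing. Mvd, Sc5d and Scarb1 lost their call under it (adjusted p from 0.053 to 0.0597). Counts under about 30 per library limit Idi1, Hsd17b7, Lrp8, Nr1h3, Sqle and Mvd. Fdft1, Nsdhl and Scarb1 had counts that low in some libraries. The causes of these changes were not tested.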

Other observations

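Fat cells and sebaceous cells also handle lipid. Of their markers, those that passed were higher in Eda-/- glands, unlike the receptors that fell. Of 7 adipocyte markers 5 were too low to be tested and the other 2 rose, where 6.21% of all tested genes were higher. Fabp4, a fatty acid binding protein also found in capillaries, had 36, 34 and 30 counts in Eda-/- libraries, against 12, 7 and 16 counts in wild-type libraries (log2 fold change 1.98, edgeR adjusted p = 0.000694). Cfd, the adipocyte protease adipsin, rose by 1.43 (edgeR adjusted p = 0.0418). Of the adipocyte markers not tested, Lep had 1, 1 and 0 counts in Eda-/- and 3, 3 and 4 counts in wild-type libraries. Cidec had the same mean CPM in both groups (0.23), and Adipoq, Plin1 and Retn had higher means in Eda-/-. The 7 adipocyte markers together summed to 6.72, 6.56 and 4.83 CPM in Eda-/- libraries, against 2.43, 2.12 and 1.93 CPM in wild-type libraries, a low level in both groups. Of 7 markers of sebaceous or meibomian glands 2 were tested. The melanocortin receptor gene Mc5r, known for its part in exocrine gland secretion, had 21.04, 19.7 and 26.35 CPM in Eda-/- libraries, against 16.1, 16.8 and 13.0 CPM in wild-type libraries (0.55, SE 0.13, edgeR adjusted p = 0.0103). Awat2, a wax synthase of meibomian glands, did not pass (-0.12). Of the sebaceous or meibomian markers not tested, 3 had lower mean CPM in Eda-/- than in wild-type glands. These were Scd3 (0.38 against 0.57), Far2 (0.35 against 0.45) and Krt79 (0.24 against 0.27). Awat1 and Elovl3 had at most 1 count in any library.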
